A study of Mus musculus with 6 samples.

Results

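The genes described here encode proteins of elastic fibres and of the microfibrils that carry them: elastin, the fibrillins, the fibulins and the microfibril-associated proteins. The 10 genes, Eln, Fbn1, Fbn2, Fbln1, Fbln2, Fbln5, Efemp1, Efemp2, Mfap4 and Mfap5, were taken by symbol from the annotation of the array, out of 30702 genes with a probe set of their own. For 8 of the 10 the annotation gave a probe set that names no other gene, and each of those 8 genes had 1 such probe set. Fbn1, the main fibrillin gene, and Efemp2, which encodes fibulin-4, had none in the annotation used and were not analysed here. Expression was measured on 6 Affymetrix arrays of bone marrow stromal cells (BMSCs), adherent cells of the marrow from which bone, cartilage and fat cells can arise, with 3 arrays from mice aged 3 months and 3 from mice aged 18 months. In both ages the cells came from crushed femurs digested with collagenase, were sorted as positive for Sca-1 and CD29 and negative for CD45 and CD11b, and were then expanded in culture beyond passage 1, after which total RNA was extracted, so the values are of cultured cells and not of cells as they lay in the marrow. The sources used here do not give strain, sex or any pooling of animals. The arrays of an age are labelled as biological replicates without naming animals, so p-values here cover the spread among arrays of an age, which may be technical. The comparison asks how the expression of these genes differs with the age of the mice.

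Elastic fibres give arteries, lung, skin and ligament their recoil. Fibrillins assemble into microfibrils, on which fibulins help to place tropoelastin, the soluble product of Eln, and lysyl oxidases then crosslink it into an insoluble core. Microfibrils also hold latent complexes of TGF-beta and related growth factors, so the same scaffold takes part in signalling. Fibulins are secreted glycoproteins built largely from calcium-binding EGF-like domains, and mesenchymal cells are among their main sources.

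The values are the deposited log2 expression values of the probe sets. A value is read here against the array's own negative control probe sets, 95% of which had a mean below 7.61 on the log2 scale. A gene below 7.61 is within the range of these controls, and for such a gene values and log2 differences are given but no fold. The arrays were closely alike, with medians over transcript clusters of 5.39 to 5.44 and Pearson's r across genes of 0.995 to 0.999 within an age and 0.976 to 0.978 between ages (genes are not independent replicates). The median SD of a gene was 0.07 among the young arrays and 0.04 among the aged ones. The test used below takes a common spread for both ages. The number of arrays limits the precision. The sources used here do not say whether cells of the ages were cultured, or arrays hybridised, together, and a batch that follows age cannot be told apart from it. Of the markers of the sort, Itgb1 (CD29) was bright at 11.86 and 11.76 in the young and aged arrays, Ptprc (CD45) lay at 3.65 and 3.62 and Itgam (CD11b) at 5.26 and 5.24, both within the negative control range, and Ly6a (Sca-1) had no probe set of its own in the annotation used.

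With age, 3 of the 6 tested members rose and none fell: the fibulin genes Fbln1, Fbln2 and Fbln5. Fbln2 rose most, 1.79-fold, then Fbln1, 1.62-fold, and Fbln5, 1.28-fold. These were the members above the negative control range in both ages. The other 5 with a probe set, Eln, Fbn2, Efemp1, Mfap4 and Mfap5, lay within that range in both ages, and none of those that were tested passed. Calls are by limma across 20187 genes with Benjamini-Hochberg adjusted p under 0.05. At this threshold 18.4% of all tested genes were higher and 22.1% were lower in the aged arrays. With 40.6% of all genes called in either direction, 3 calls among 6 tested members are a share near the background, and all 3 were upward. Among genes above the negative control range in both ages, 21.4% were called higher. The median difference of the 6 tested members was 0.24 on the log2 scale, and the median over all tested genes was 0.01. In RNA from a whole culture, more cells that express a gene and more RNA of it per cell cannot be told apart.

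The 3 fibulin genes that rose together are shown by the promoter sequence of each, so that what they have in common before their start sites can be seen beside their values. The sequences are from RefSeq, mouse build GRCm38.p6, and cover the 250 bases before the gene's start, 5′ to 3′ on the gene's strand. They are chr15:85205699-85205948 on the plus strand for Fbln1, chr6:91212514-91212763 on the plus strand for Fbln2 and chr12:101819120-101819369 on the minus strand for Fbln5. Where RefSeq lists 2 starts, as for Fbln1 and Fbln5, the first in its table is shown. Capitals mark every match to the 8 motifs searched.
Fbln1: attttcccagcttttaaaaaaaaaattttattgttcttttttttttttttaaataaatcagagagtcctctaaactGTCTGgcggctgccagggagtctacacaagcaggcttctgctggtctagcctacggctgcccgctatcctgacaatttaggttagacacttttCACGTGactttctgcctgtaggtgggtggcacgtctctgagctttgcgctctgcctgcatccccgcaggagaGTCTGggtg
Fbln2: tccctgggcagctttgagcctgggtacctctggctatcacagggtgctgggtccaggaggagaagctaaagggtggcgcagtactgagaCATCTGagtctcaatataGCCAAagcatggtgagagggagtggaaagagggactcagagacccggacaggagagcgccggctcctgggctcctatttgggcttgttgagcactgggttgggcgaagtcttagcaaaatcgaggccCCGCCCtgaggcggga
Fbln5: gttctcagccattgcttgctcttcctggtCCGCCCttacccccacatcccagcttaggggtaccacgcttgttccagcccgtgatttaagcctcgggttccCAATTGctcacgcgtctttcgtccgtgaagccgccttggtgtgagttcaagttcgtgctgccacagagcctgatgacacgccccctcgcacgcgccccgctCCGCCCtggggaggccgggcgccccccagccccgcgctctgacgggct

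The search ran on both strands of windows of 300 bases, 250 before and 50 after the start, and the 50 bases after the start are not printed. The E-box, CANNTG, was found in all 3 windows shown, with 2 matches for Fbln1, 1 for Fbln2 and 2 for Fbln5, and 72.3% of all 32851 promoter windows held it. In Fbln1 the printed match is the palindrome CACGTG. The GC box GGGCGG had 2 matches each in the windows of Fbln2 and Fbln5 and 0 in the window shown for Fbln1, beside 35.7% of all windows. The SMAD motif CAGAC had 2 matches for Fbln1, 1 for Fbln5 and 0 for Fbln2, beside 49.6% of all windows, and the NF-1 motif TTGGC had 1 each for Fbln2 and Fbln5, beside 46.7%. The AP-1 motif TGANTCA, the TEAD motif GGAATG, the TATA box TATAAA and the CArG box had 0 matches in the 3 windows, and 7.8%, 14.7%, 13.6% and 1.6% of all windows held them. No searched motif overlapped another in the printed stretches. Which motif the 3 genes share depends on the start taken. The window at the second start of Fbln1 had 2 GC boxes, 2 E-boxes and 2 SMAD motifs. That at the second start of Fbln5 had 0 GC boxes, 0 E-boxes and 2 SMAD motifs. With that start of Fbln5, no searched motif was held by all 3 genes. These matches describe the letters of the windows.

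**Figure D1:**
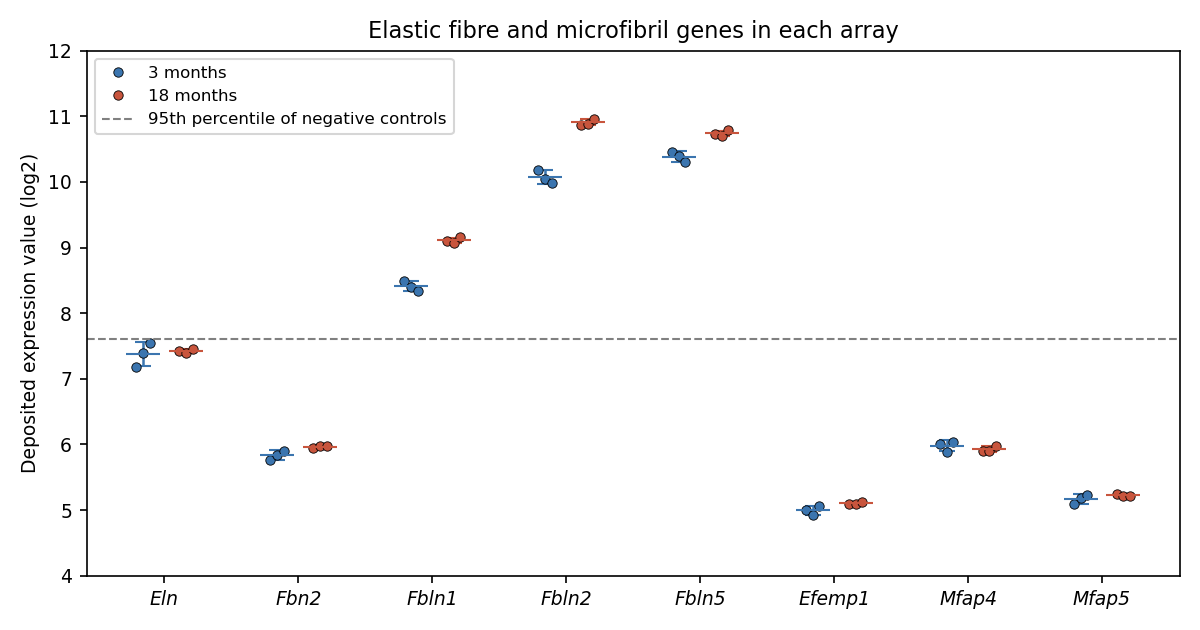
Deposited log2 expression values of the 8 members with a probe set, with a point per array (blue, 3 months; red, 18 months), the mean as a horizontal line and the SD of 3 arrays as the error bar. The dashed line is 7.61, the 95th percentile of the negative controls; Fbln1, Fbln2 and Fbln5 lie above it at both ages with groups that do not overlap, and the other 5 have means below it.

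Fbln2 encodes fibulin-2, a large fibulin that binds fibrillin and elastin and is made by mesenchymal cells in development and repair. Its log2 values were 10.19, 10.04 and 9.99 in the young arrays and 10.87, 10.89 and 10.96 in the aged arrays. Every aged array was above every young array. The means were 10.07 ± 0.10 (SD, n = 3) and 10.91 ± 0.05 (SD, n = 3), a log2 difference of 0.84 with a 95% interval of 0.72 to 0.96 (limma, adjusted p = 3.33e-06). Of all tested genes, 97.2% had a lower difference than Fbln2.

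Fbln1 encodes fibulin-1, which is found in the core of elastic fibres and in basement membranes. The young arrays read 8.49, 8.41 and 8.34 and the aged arrays 9.10, 9.07 and 9.15 on the log2 scale, again without overlap. The difference between the means, 8.41 ± 0.07 and 9.11 ± 0.04 (SD, n = 3 each), was 0.70 on the log2 scale with a 95% interval of 0.59 to 0.80 (limma, adjusted p = 4.6e-06). Fbln1 stood closer to background than the other fibulins that rose. The antigenomic probes, which match no mouse sequence, read 8.87 in young and 9.11 in aged arrays in their class of 23 G and C bases, and 7 of their 23 classes lay above 7.61 in both ages. The probe sequences of Fbln1 were not used here, so the part of G and C rich background in its value was not tested.

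Fbln5 encodes fibulin-5, which binds tropoelastin and cell-surface integrins and is needed for normal elastic fibres in mice. Its probe set was bright, with 94.7% of all genes having a lower mean over the 6 arrays. The values were 10.46, 10.40 and 10.30 in young arrays and 10.72, 10.70 and 10.79 in aged arrays, so the groups did not overlap. The means of 10.39 ± 0.08 and 10.74 ± 0.05 (SD, n = 3 each) differed by 0.35 on the log2 scale, with a 95% interval of 0.25 to 0.46 (limma, adjusted p = 0.000266). That is a small difference: the antigenomic classes moved upward by as much as 0.29 between the ages, while the median negative and positive control probe sets moved the other way, by -0.26 and -0.15. When limma tested the difference against a minimum of 0.3 on the log2 scale, Fbln1 and Fbln2 passed (adjusted p = 0.00021 and 6.85e-05) and Fbln5 did not (adjusted p = 0.948), beside 9.83% of all tested genes that passed.

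The sizes of the 3 rises were also compared on the same arrays. The log2 difference between Fbln2 and Fbln5 on the same array went from -0.31 ± 0.04 to 0.17 ± 0.02 (SD, n = 3 each), a change of 0.48, and the groups did not overlap. The log2 difference between Fbln1 and Fbln5 changed by 0.34, from -1.98 ± 0.02 to -1.63 ± 0.01, also without overlap. The log2 difference between Fbln1 and Fbln2 changed by -0.14, again without overlap. Each of these 3 had an exact two-sided permutation p = 0.1, the smallest that 3 against 3 arrays can give, and 0.125 after adjustment over the 5 pairs computed. The remaining pairs, Fbln5 with Efemp1 and Mfap4 with Mfap5, hold probe sets within the negative control range, so their log2 differences are not read here. The pairs of Fbln1 with Fbln5 and of Fbln2 with Fbln5 were chosen after the values were seen. A level of 1 probe set says nothing about the level of another, and only the change of each difference between ages is read here.

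**Figure D2:**
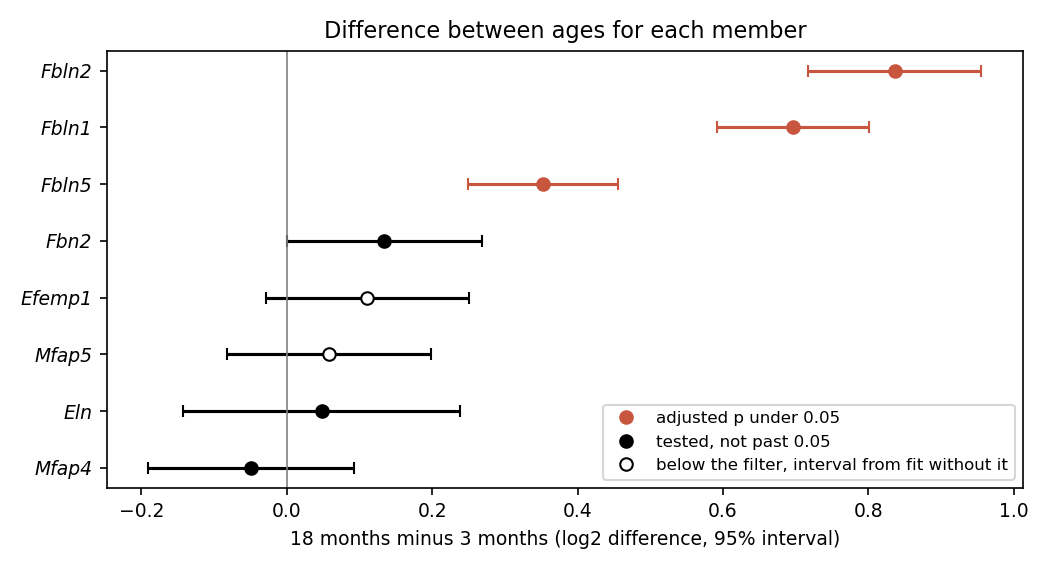
Log2 difference between the means at 18 and 3 months for each of the 8 members, with the 95% interval of the limma fit across all genes (open circles, members below the intensity filter, with the interval of a fit without it). The intervals of Fbln2, Fbln1 and Fbln5 start at 0.25 or above, and those of the other 5 reach no further than 0.27.

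Eln encodes tropoelastin, the precursor of the elastic core. It read 7.18, 7.40 and 7.54 in the young arrays and 7.42, 7.39 and 7.45 in the aged arrays. The aged values lay inside the range of the young ones. The means of 7.37 ± 0.18 and 7.42 ± 0.03 (SD, n = 3 each) differed by 0.05 on the log2 scale, with a 95% interval of -0.14 to 0.24 (limma, adjusted p = 0.699). Its young mean stood above 92.4% of the negative controls and its aged mean above 94.6%, so Eln lay just inside the control range. The median negative control itself was lower in the aged arrays, by a log2 difference of -0.26, which bears on the rise in that percentage. The sign of its small difference was not settled: it was -0.05 without replicate 1 of the young arrays, the lowest of the 6, and -0.003 after quantile normalization of all 6.

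Fbn2 encodes fibrillin-2, the fibrillin of microfibrils in developing tissue. The young arrays read 5.76, 5.84 and 5.91 and the aged arrays 5.94, 5.98 and 5.98, so each aged array was above each young array, by as little as 0.04 between the nearest of them. The difference of 0.13 on the log2 scale, with a 95% interval of 0.00 to 0.27, did not pass (limma, adjusted p = 0.106). It passed narrowly after quantile normalization and after median centring (limma, adjusted p = 0.0479 and 0.0483) and without replicate 3 of the young arrays (limma, adjusted p = 0.0384). Both means, 5.83 ± 0.07 and 5.97 ± 0.02 (SD, n = 3 each), lay well inside the negative control range.

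Mfap4 encodes a fibrinogen-related glycoprotein that binds elastin and collagen. It was at 6.01, 5.88 and 6.04 in young and 5.91, 5.91 and 5.98 in aged arrays, with overlapping groups and a difference of -0.05 (95% interval -0.19 to 0.09; limma, adjusted p = 0.588). Mfap5, which encodes the small microfibril-associated glycoprotein MAGP-2, and Efemp1, which encodes fibulin-3, were below the intensity filter of 5.40 and were not among the tested genes. Mfap5 read 5.09, 5.18 and 5.23 in young and 5.25, 5.21 and 5.21 in aged arrays, with overlap. Efemp1 lay between 4.93 and 5.06 in the young and between 5.09 and 5.13 in the aged arrays, without overlap but with a difference of 0.11. In a fit of all genes without the filter neither passed (limma, adjusted p = 0.591 and 0.26), with 95% intervals of -0.08 to 0.20 for Mfap5 and -0.03 to 0.25 for Efemp1. In all, 5 of the 8 members had young and aged values that did not overlap, beside 39.1% of all genes with a probe set.

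**Figure D3:**
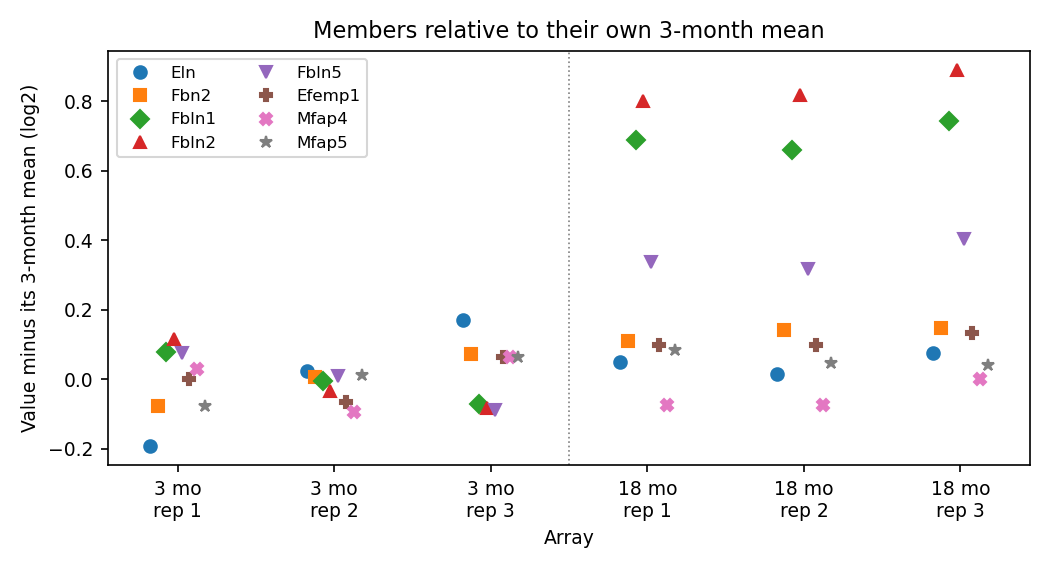
Each member's log2 value in each array minus its own mean over the 3-month arrays, with arrays along the horizontal axis and a marker shape and colour per gene. The 3 fibulins that rose stand at 0.32 or above in all 18-month arrays, the other 5 members at 0.15 or below, and among the 3-month arrays the fibulins are highest where Eln is lowest.

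The members also varied together among the young arrays. Replicate 1 of the young arrays had the highest values of Fbln1, Fbln2 and Fbln5, at 0.08, 0.12 and 0.08 above their young means, and the lowest value of Eln, 0.19 below its mean. Replicate 3 had the lowest young values of the 3 fibulins and the highest young values of Eln, Fbn2, Efemp1, Mfap4 and Mfap5. The same tilt ran through the arrays as a whole. In replicate 1 the median gene above 7.61 stood 0.04 above its young mean and the median gene below 7.61 stood 0.04 under it, and in replicate 3 these medians were -0.04 and 0.05. Its part in the members' values was not tested. Fbln1, Fbln2 and Fbln5 remained past the test without either array. Across the 6 arrays, which share their age groups, Pearson's r was 0.999 between Fbln1 and Fbln2, 0.987 between Fbln1 and Fbln5 and 0.986 between Fbln2 and Fbln5, and it was from -0.010 to 0.110 between Eln and these 3.

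The genes nearest in pattern were found by the root mean square difference of log2 values, each centred on its own mean over the 6 arrays. For Eln they were Gdf10, Alpi and Gcnt7, at 0.01 each, and 4668 genes that are not members lay within 0.1, since a flat pattern is common. For the 3 fibulins, added after the values were seen, the nearest were Pck2 for Fbln1 at 0.01, Lmf2 for Fbln2 at 0.02 and Emp1 for Fbln5 at 0.01. Within 0.1 of these fibulins lay 422, 264 and 1687 genes.

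The other genes of the pathway, in 6 lists of 72 genes, had 62 tested, of which 30 rose, 6 fell and 26 did not pass, with a median difference of 0.13 on the log2 scale. The genes listed for crosslinking elastin and processing matrix precursors, not all of which encode enzymes, had the highest median difference of these lists, 0.44. Among them 9 of 11 tested rose and none fell. Loxl3, a lysyl oxidase-like enzyme, rose from 8.34 ± 0.14 to 11.01 ± 0.03 (SD, n = 3 each), 6.39-fold (limma, adjusted p = 1.02e-08). Pcolce, which enhances the removal of procollagen propeptides, rose 1.93-fold, from 10.19 ± 0.03 to 11.14 ± 0.03 (limma, adjusted p = 4.17e-08). Tll1, a protease related to Bmp1, rose by 1.43 on the log2 scale, from 5.99 to 7.42, within the negative control range. Lox itself, the lysyl oxidase that crosslinks elastin and collagen, rose 1.78-fold, and Loxl1, which fibulin-5 is known to bind, rose 1.36-fold. The enzymes among these also act on collagens.

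Of the latent TGF-beta binding proteins and the ligands held on microfibrils, 6 of 9 tested rose and 1 fell (median difference, 0.20). Ltbp2, which binds fibrillin and fibulin-5, rose from 7.32 ± 0.02 to 8.41 ± 0.02 (SD, n = 3 each), by 1.09 on the log2 scale, out of the negative control range (limma, adjusted p = 8.39e-08). Ltbp1, which tethers latent TGF-beta to the matrix, rose 1.67-fold, and the ligand gene Tgfb3 rose 1.85-fold (limma, adjusted p = 8.89e-07 and 2.94e-06). The gene that fell was Ltbp4, which works with fibulin-5 in elastic fibre assembly. It went from 7.93 ± 0.05 to 7.69 ± 0.02 (SD, n = 3 each), a decrease that passed the test (limma, adjusted p = 0.00168). It was named after its value was seen.

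Among the other fibulins and microfibril-associated proteins, 3 of 13 tested rose and 1 fell (median difference, 0.08). Vcan, the proteoglycan versican, which binds fibrillin and fibulins, rose from 8.79 ± 0.08 to 10.36 ± 0.01 (SD, n = 3 each), 2.98-fold (limma, adjusted p = 1.97e-08). Emilin2, an elastin interface protein, rose by 0.63 on the log2 scale within the negative control range, and Hspg2, the basement membrane proteoglycan perlecan, fell by 0.19 (limma, adjusted p = 3.68e-05 and 0.0128). Mfap2, which encodes MAGP-1, the paralog of the Mfap5 product, was at 6.53 and 6.62 and did not pass, nor did Fbln7, at 6.61 and 6.78 (limma, adjusted p = 0.307 and 0.0559). Of the ADAMTS and ADAMTSL genes, whose products bind or cut microfibril proteins, 3 of 10 tested rose and 1 fell (median difference, 0.08). Adamtsl4, which binds fibrillin-1, rose 2.23-fold and Adamtsl5 rose 1.22-fold, while Adamtsl3 went from 9.47 ± 0.08 to 8.29 ± 0.02 (SD, n = 3 each), which is -1.18 on the log2 scale (limma, adjusted p = 2.52e-07, 0.000499 and 1.61e-07).

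Of the receptors and integrins that bind elastin or its fibres, 4 of 10 tested rose and 3 fell (median difference, 0.04). Itga5, the alpha subunit of the fibronectin receptor, rose 1.49-fold, Itga8 rose by 0.71 from 5.35 to 6.06, within the negative control range, and Itgav fell by 0.39 (limma, adjusted p = 4.28e-06, 8.49e-06 and 1.92e-05). Of the elastin-degrading proteases, 5 of 9 tested rose and none fell, with a median difference of 0.17. Ctsk, which encodes the elastolytic cathepsin K, rose 1.97-fold, Mmp14, a membrane-bound metalloproteinase, rose 1.51-fold and Ctsb rose 1.29-fold (limma, adjusted p = 2.66e-06, 9.64e-07 and 1.76e-05). Mmp12, the macrophage elastase, and Mmp7 lay below the filter at both ages, at 3.71 and 3.82 and at 4.71 and 4.73. Over all genes tested 18.4% rose and 22.1% fell, and no list was tested as a set.

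**Figure D4:**
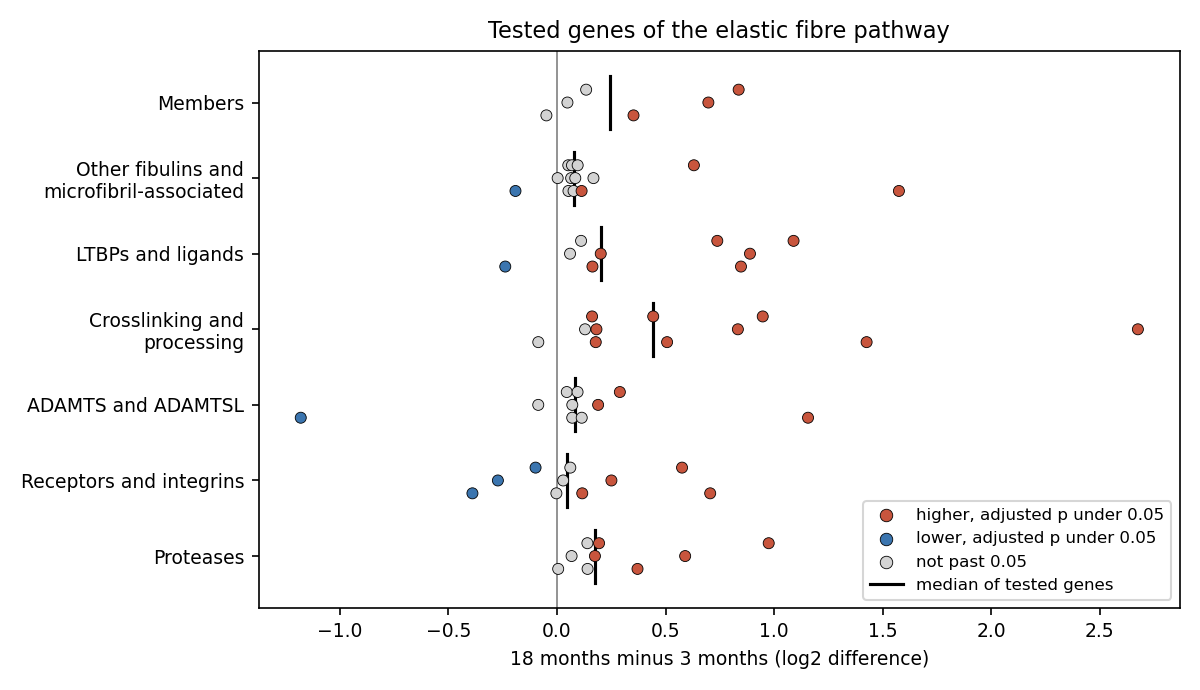
Log2 difference between 18 and 3 months of every tested gene of the members and of the 6 other lists, with a point per gene (red, higher; blue, lower; grey, not past an adjusted p of 0.05) and the median of each list as a black bar. The crosslinking and processing genes have the highest median, 0.44, and Loxl3 is the point farthest to the right at 2.68.

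Of the markers of cells that the sort or culture could hold, some differed between the ages and others did not. Sums given for a list are over all its markers with a probe set, tested or not. Of the stromal markers 7 of 10 tested rose and 1 fell, and their summed log2 value was 95.08 to 95.46 in young and 101.47 to 101.64 in aged arrays. Cxcl12 rose most of them, 4.75-fold, and Prrx1 rose 1.81-fold. Col1a1 and Col3a1, fibrillar collagen genes, rose 1.73-fold and 3.61-fold, and Pdgfrb was bright at 11.51 and 11.71. Other markers used for stromal cells, Thy1 at 6.31 and 6.28 and Eng at 6.53 and 6.60, lay within the negative control range, and Nt5e, at 7.58 and 7.05, was lower in the aged arrays within it. Of the smooth muscle markers, cells rich in elastin in arteries, 4 of 8 tested rose and 1 fell, with sums of 69.16 to 69.70 and 70.47 to 70.74. Acta2 and Tagln, contractile genes that cultured stromal cells also express, were bright and rose 1.15-fold and 1.21-fold. Smtn was at 9.79 and 9.74 and did not pass, and Lmod1 rose by 0.74 within the negative control range. The marker that fell was Cnn1, from 7.60 to 7.37, a log2 difference of -0.22 within that range. The defining genes Myh11, at 6.31 and 6.34, and Myocd, at 5.46 and 5.39, lay within that range and did not pass. Of the chondrocyte markers 3 of 7 tested rose, with sums of 47.91 to 48.60 and 49.16 to 49.82. Sox9 rose 1.47-fold from 9.88 to 10.43, Col2a1 rose from 7.57 to 7.99, out of the range, and Comp rose by 0.19 within it. Acan, at 6.07 and 6.16 within the range, did not pass. Of the tendon and ligament markers 2 of 4 tested rose, with sums of 34.42 to 34.67 and 36.20 to 36.47. Fmod rose by 1.54, from 5.85 to 7.39, and Mkx by 0.38, both within the range, Scx was above it at 8.27 and 8.23 and did not pass, and Tnmd was below the filter at 4.19 and 4.08. Endothelial markers, with 1 of 5 tested higher and 2 lower, had sums over all 7 measured of 38.78 to 39.18 and 39.40 to 39.61. Kdr was the higher one, with a log2 difference of 0.69, and Tek and Vwf differed by -0.22 and -0.14. Blood cell markers, with 1 of 5 tested higher, had sums over all 10 measured of 51.72 to 52.74 and 53.53 to 53.67. The higher one was Ly6g, with a log2 difference of 0.90. The other tested blood cell markers differed by -0.11 to 0.07 and did not pass. All measured endothelial and blood cell markers were within the negative control range. The part of any of these cells in the fibulin values was not tested.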

How the data were processed

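The deposited table holds the authors' log2 expression values by probe set and array. MAS5 is named without a version in the submitters' processing notes, and the sources used here give nothing else on background, scaling or summarisation, so whether the log2 values come from MAS5 or from another summarisation is not settled, and small differences can depend on that step. Nothing was rescaled for the main analysis. Symbols came from the platform annotation, updated through the RefSeq table of GRCm38.p6: 31258 of 32750 annotated probe sets named 1 gene, and 31256 of these matched. Coordinates of the probe sets are left out, as no source used here names the build behind the array. The promoter coordinates given are those of RefSeq on GRCm38.p6.

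Each gene was represented by its brightest probe set by mean of the 6 arrays. Genes with a mean under the median of all transcript clusters, 5.40, were not tested, which left 20187. Aged arrays were compared with young ones by limma 3.58.1 in R 4.3.3 (lmFit, eBayes with intensity trend), with Benjamini-Hochberg adjustment over all tested genes, and against a minimum difference of 0.3 with treat. Intervals are 95% intervals of that fit, errors are SDs of 3 arrays, and pairs of members were compared by exact permutation of arrays. Of 7 planned pairs, 4 could not be computed, since they held Fbn1 or Efemp2, and 2 were added. The test was tried on simulated arrays with 200 changed genes. At log2 changes of 0.25, 0.5, 1 and 2 it recovered 16, 39, 50 and 50 of 50 genes, with 5 false calls. In the data 40.6% of tested genes were called, a far larger share than was changed in the simulation. The adjustment depends on that share, so these counts do not give the recovery in the data. Changes smaller than 0.25 were not tried. The members, gene lists, motifs and tests were chosen with earlier results of these data known. All members are named, and of each other pathway list the 3 passing genes with the smallest p. Others were named for their place in the pathway. The marker genes named were not picked by p. The alternatives tried were median centring, quantile normalization, no filter, a filter at the 70th percentile, averaging a gene's probe sets, eBayes robust or with no trend, the replicate number as a block, and each array left out. Figures were drawn with matplotlib 3.10.9.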

Additional observations from a re-analysis of the deposited data

How the results depend on the processing

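Fbln1, Fbln2 and Fbln5 remained higher and past the test in all 14 alternatives, with log2 differences of 0.66 to 0.74, 0.79 to 0.89 and 0.31 to 0.39. The count of members called higher was 3 or 4, the fourth being Fbn2, which passed after quantile normalization, median centring and without young replicate 3, at differences of 0.14, 0.15 and 0.17. The cause was not tested. None was called lower, and 2 passed the minimum difference of 0.3 in every alternative. The difference of Eln, not called in any alternative, was -0.003 after quantile normalization and -0.0486 without young replicate 1; leaving out each array gave -0.05 to 0.13. Mfap4 stayed between -0.10 and -0.02 and was not called. Over all genes the calls ranged from 3006 to 4328 higher and from 3711 to 4963 lower when each array was left out. The change in the log2 difference of Fbln1 and Fbln2 was -0.17 after quantile normalization, and that of Fbln1 and Fbln5 was 0.33. Same-numbered arrays of the ages did not deviate together (correlations of -0.048, 0.068 and 0.015 over 20187 genes), so the numbers were not taken as pairs. With the replicate number as a block, 3524 genes were higher and 4204 lower, and 3 members were higher and 0 lower. In the other pathway lists together, 25 to 32 genes were higher and 4 to 7 lower over the alternatives; Gdf5, Itgb1, Lgals3, Bgn, Cela1, Loxl4 and Hspg2 were lost in at least 1. Values under 7.61 limit what can be said of the 5 dim members.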
